A study of Mus musculus with 6 samples.

Results

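The genes that receive and load the transmitter glutamate were followed in the embryonic mouse ganglionic eminence with and without the homeobox transcription factors Dlx1 and Dlx2. The set held 36 genes of the 55416 in the count table, matched by gene symbol: 4 AMPA receptor subunits, 5 kainate receptor subunits, 7 NMDA receptor subunits, 1 delta receptor, 7 metabotropic receptors, 3 vesicular glutamate transporters and 9 auxiliary subunits. The genes were listed by family, with no threshold on a measured value, though earlier results of these data were known when the set was proposed. Ganglionic eminences were taken at E13.5, the embryonic day that the labels give, from Dlx1/Dlx2 double knockout (DKO) mice and from wild-type (WT) littermates, and 3 total RNA libraries were sequenced per genotype after ribosomal RNA removal. The labels do not give the knockout alleles, the sex, the strain, or whether embryos were pooled, and they do not say that the 3 libraries of a genotype came from separate embryos. The p-values therefore measure the spread between these libraries, which may in part be technical.

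Glutamate is the main excitatory transmitter of the brain. AMPA, kainate and NMDA receptors are ion channels of 4 subunits each, metabotropic receptors act through G proteins, and the vesicular transporters load glutamate into synaptic vesicles and so mark the neurons that release it. The ganglionic eminence is the ventral forebrain zone whose progenitors give rise to GABAergic neurons, among them cortical interneurons and striatal projection neurons. Its neurons carry glutamate receptors before they have mature synapses, and such receptors are known to affect the migration of young interneurons. Dlx1 and Dlx2 are needed there for the GABAergic programme.

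Levels are given as CPM, read counts scaled to a common library size with edgeR's TMM factors, which correct for depth and composition. A gene was called where its p-value from edgeR's quasi-likelihood test, adjusted over all 23628 genes tested, was under 0.05. Total counts ran from 56618090 to 70114173 per library, so that 3 reads were worth 0.0432 to 0.052 CPM. The genotype check followed the labels: Dlx2 fell from 295.7 ± 16.1 CPM (SD, n = 3) in WT to 8.68 ± 1.99 in DKO, and Dlx1 fell from 438.9 ± 6.12 to 81.6 ± 10.8 CPM. Y-linked genes were expressed in WT1, DKO2 and DKO3 and Xist in the other libraries, so the sexes were unevenly spread over the genotypes. The 12 markers of the ganglionic eminence and its GABAergic neurons summed to 1517 to 1563 CPM in WT and 723.6 to 878.1 CPM in DKO, 50.7% of WT, with 10 called lower and 1 higher. Summed markers of cortical excitatory neurons were also well above 0, at 969.7 to 980.7 CPM in WT and 729.1 to 797.1 CPM in DKO. Of 6 markers of oligodendrocyte precursors, cells that also carry glutamate receptors, 5 were called higher, with sums of 77.1 to 78.7 CPM in WT and 143.2 to 185.5 CPM in DKO. Of 9 markers of blood, vessels, microglia and meninges none was called by edgeR, none had an unadjusted p under 0.05, and their sums overlapped. The part of these shifts in the receptor levels was not tested. In bulk tissue, fewer cells of a type and less RNA per cell cannot be told apart.

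Of the 36 genes, 35 passed the filter on low counts, and 5 were called, all lower in DKO: Grik3, Grm4, Grik1, Neto1 and Gria1. No member was called higher by edgeR. The 5 are 14.3% of the members tested, against 2.68% of all genes called in either direction, 1.34% called lower and 1.34% called higher. At an unadjusted p under 0.05, 12 members were lower and 1, Slc17a8, was higher, together 37.1% of the members tested. Over all genes tested the share at that threshold was 13.3%, with 6.81% lower and 6.52% higher. DESeq2 called 6 lower and 0 higher, adding Slc17a7. Over all 37916 genes with a DESeq2 fold change it called 560 lower and 574 higher. The 5 genes belong to 4 classes, with WT levels from 11.1 to 315 CPM, and all stood at 50.6% to 59.6% of their WT mean. Their groups did not overlap: the lowest WT library was above the highest DKO library in each. In the gene models used, Gria1, Grik1, Grik3 and Grm4 overlap no other gene, and 2.62% of the exon bases of Neto1 lie opposite an antisense gene. Over all members tested, 11 had every DKO library below every WT library and 2 had every DKO library above, which is 37.1% of the members against 19.5% of all genes tested.

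**Figure D1:**
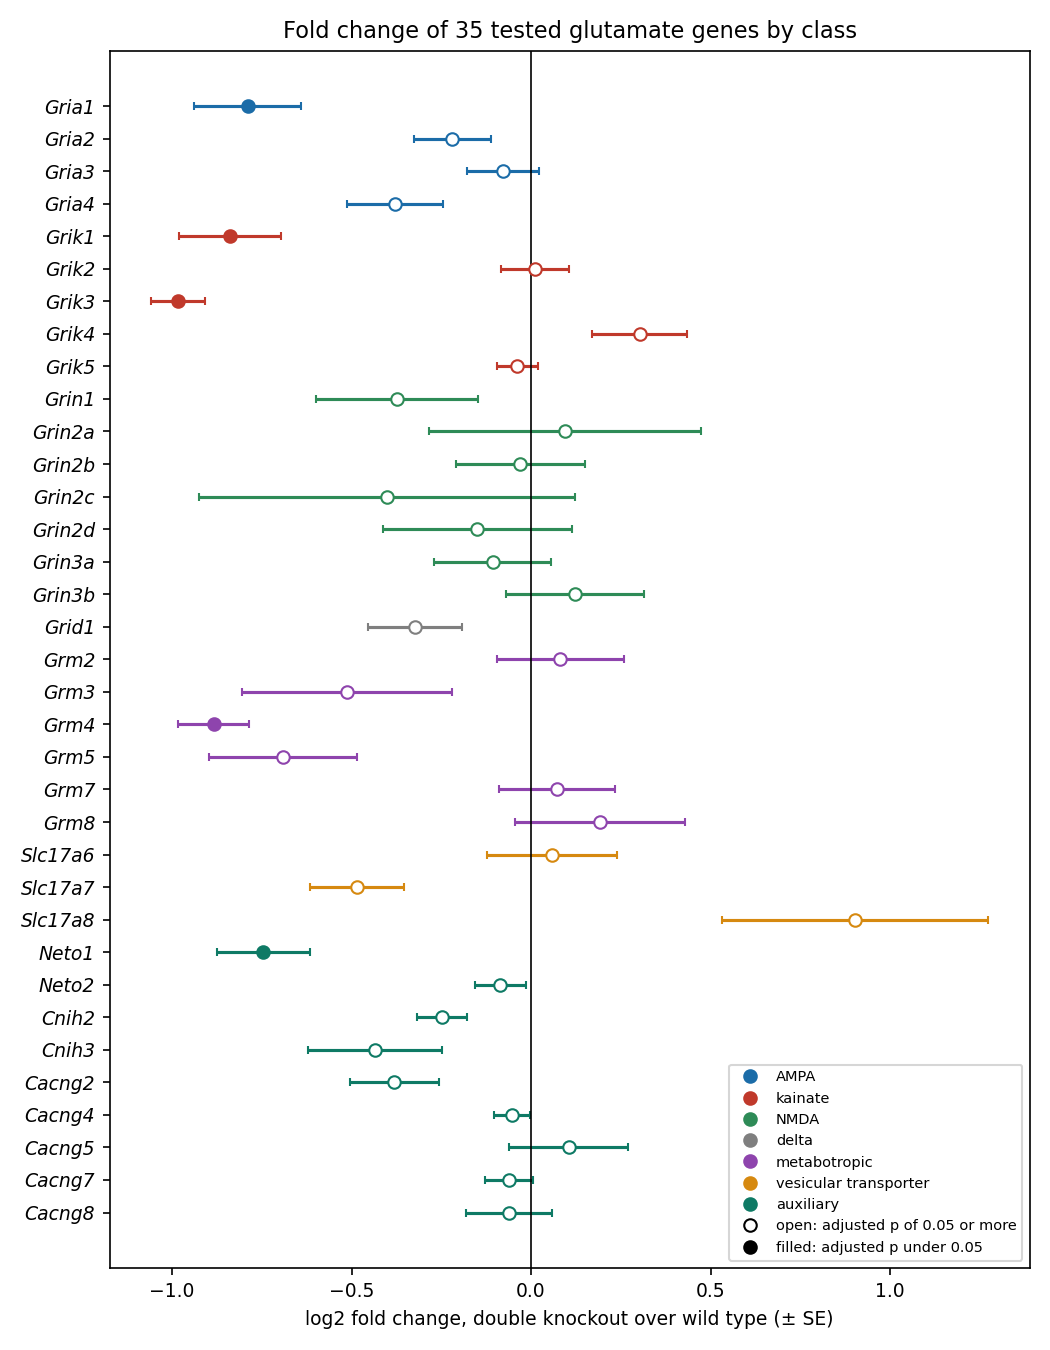
Log2 fold change, DKO against WT, with its standard error for the 35 genes tested, ordered by receptor class; filled points were called at an adjusted p under 0.05. The called points are Gria1, Grik1, Grik3, Grm4 and Neto1, all between -0.98 and -0.75, and the NMDA subunits stand on both sides of 0.

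The shift of the set as a whole was smaller than that of the called genes. The median log2 fold change of the members was -0.107, against -0.0016 over all genes tested, and 25 of 35 members were negative. WT1 was the highest of the 6 libraries in 23 of 35 members and DKO3 the lowest in 27. The sum of the 10 general neuron markers was also highest in WT1 and lowest in DKO3. It was 6713, 6213 and 6500 CPM in WT1 to WT3 and 5880, 5744 and 5095 CPM in DKO1 to DKO3. Single markers differed from their sum: Elavl3 was highest in WT3 and had its lowest level in DKO2. Of the 10, 8 had a negative log2 fold change and 2 were called lower. The sum of the 8 progenitor markers ran the other way, at 2628, 2994 and 2879 CPM in WT and 3220, 3067 and 3638 CPM in DKO. Of these 8, 1 was called higher. None of these neuron and progenitor markers was at 0, and the part of cell composition in the receptor results was not tested. With WT1 left out the members' median was -0.016, with DKO3 left out it was -0.0277, and with both left out it was 0.0398, with 16 of 35 negative. These 2 libraries were picked from the members' own values, so a higher median without them follows from that choice. It does not test where the shift comes from. All 5 called genes were still called without WT1 and DKO3 together. Leaving out outlying libraries can also narrow the spread within a genotype, so these calls add no support. The count of lower members was 2 without WT1, 3 without WT2, 2 without WT3 and 3 without DKO2, and 5 without DKO1 or DKO3. Over all genes, 634 were called in either direction with all libraries. That number was 309, 325, 403 and 402 without WT1, WT2, WT3 and DKO2, and 380 and 749 without DKO1 and DKO3. With the level of Y-linked genes as a covariate 2 members remained, Grik3 and Grm4, among 358 genes called in all. These 2 were called in all 14 alternatives run.

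AMPA receptors carry most fast excitatory current, and Gria2 encodes the subunit that makes them nearly impermeable to calcium. Gria1 was at 96.4, 74.5 and 81.5 CPM in WT1 to WT3 and at 56.2, 52.4 and 37.5 CPM in DKO1 to DKO3. Every DKO library was below every WT library, and DKO3 was the lowest. The log2 fold change of Gria1 was -0.79 (SE 0.15, edgeR adjusted p = 0.0304), 57.9% of WT. The call was lost without WT1 (adjusted p = 0.113 by edgeR), WT2 (0.0574), WT3 (0.0904) or DKO2 (0.0683), and with the Y-linked covariate (0.0844), while the log2 fold change stayed between -0.91 and -0.51 over all alternatives. Without WT1 and DKO3 together, a choice made after seeing the data, it was -0.51, at an adjusted p of 0.00712 by edgeR.

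The other AMPA subunits were not called. Gria4, a subunit abundant in immature neurons, was at 67.0, 54.0 and 55.7 CPM in WT and 50.1, 49.9 and 35.9 CPM in DKO, groups that did not overlap, with a log2 fold change of -0.38 (SE 0.134, edgeR adjusted p = 0.249). Gria2 was at 223, 190.3 and 202 CPM in WT and 203, 177 and 149 CPM in DKO, a log2 fold change of -0.22 (SE 0.108). Gria3 was at 23.2 to 28.8 CPM in WT and 21.9 to 25.7 CPM in DKO. Summed, the 4 genes stood at 373.6 ± 37.6 CPM in WT and 294.4 ± 46.2 CPM in DKO, or 78.8%, and without Gria1 the other 3 stood at 84.9% of WT. Without DKO3 the log2 fold change was -0.10 for Gria2 and -0.23 for Gria4, and without WT1 and DKO3 it was -0.03 and -0.12. Per kilobase of exon, which allows genes of unlike length to be set side by side, Gria1 made up 35.6% ± 0.82 of AMPA subunit RNA in WT and 27.6% ± 1.27 in DKO, and Gria2 33.9% ± 0.99 and 39.2% ± 1.6. Both shares moved without overlap between genotypes. Shares of a class add up to a fixed total, so a lower share of Gria1 raises the rest. The level of Gria2 itself was not raised, with its log2 fold change of -0.22. With the longest transcript as the length, Gria1 went from 29.9% to 22.6% and Gria2 from 39.1% to 43.9%, so the order of the pair in WT depends on the length used and the direction of each share does not.

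Kainate receptors modulate transmitter release and excitability, Grik1 to Grik3 form channels on their own, and Grik4 and Grik5 encode high-affinity partners that need one of them. Grik3 had the lowest adjusted p of all members. Its RefSeq promoter window is shown because it is the only one of the 5 called genes with such a window in the table used. It runs from 250 bases before to 50 bases after the transcript start at chr4:125490446-125490745 on the plus strand of GRCm38.p6, and capitals mark the transcribed bases.
Grik3: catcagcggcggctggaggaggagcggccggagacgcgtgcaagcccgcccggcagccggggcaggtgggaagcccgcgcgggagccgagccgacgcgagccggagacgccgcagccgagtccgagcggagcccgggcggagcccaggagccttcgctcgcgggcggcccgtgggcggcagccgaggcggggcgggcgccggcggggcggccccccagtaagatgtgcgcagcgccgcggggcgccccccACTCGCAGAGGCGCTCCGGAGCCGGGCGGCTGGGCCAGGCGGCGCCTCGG
This window is 82% G and C with 50 CpG dinucleotides. It holds neither TAATTA nor TAATTG on either strand, letters that homeodomain factors of the Dlx type are known to bind, which says only that these letters are not in the window.

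Grik3 was at 329, 299 and 317 CPM in WT1 to WT3 and at 156, 146 and 176 CPM in DKO1 to DKO3. The gap between the lowest WT and the highest DKO library was far larger than the range within either genotype, and DKO3 was here the highest of its group. Grik3 had a log2 fold change of -0.98 (SE 0.0743, edgeR adjusted p = 0.000283), or 50.6% of WT, and it lay between -1.05 and -0.92 under all 14 alternatives. Grik1 was at 14.2, 12.8 and 13.4 CPM in WT and 8.17, 8.60 and 5.88 CPM in DKO. All DKO libraries of Grik1 were below all WT libraries, with a log2 fold change of -0.84 (SE 0.142, edgeR adjusted p = 0.018). That call was lost without WT1 (adjusted p = 0.0847 by edgeR), WT2 (0.0575) or WT3 (0.0659), and with the Y-linked covariate (0.0637), with a log2 fold change of -0.94 to -0.64 throughout.

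The partner subunits and Grik2 did not follow Grik1 and Grik3. Grik5 was at 158, 144 and 149 CPM in WT and 155, 145 and 139.7 CPM in DKO (log2 fold change -0.04, SE 0.0569), and Grik2 at 95.0, 81.5 and 91.2 against 89.4, 102 and 78.5 CPM (0.01, SE 0.0957). Neither was called by edgeR, at adjusted p-values of 0.861 and 0.983. Grik4 was at 6.35, 5.23 and 6.91 CPM in WT and 8.43, 7.44 and 6.92 CPM in DKO, groups whose nearest libraries all but touched, and it was not called (edgeR adjusted p = 0.378). Summed, kainate subunit RNA was at 574.5 ± 30.3 CPM in WT and 411 ± 5.85 CPM in DKO, 71.6% of WT, a difference carried by Grik3. The other 4 genes summed to 259.4 ± 15.03 CPM in WT and 251.7 ± 17.9 CPM in DKO, 97.0% of WT. Per kilobase of exon Grik3 made up 47.4% ± 0.144 of kainate subunit RNA in WT and 32.1% ± 3.25 in DKO, while Grik5 made up 39.4% ± 0.421 and 51.3% ± 1.64. The share of Grik5 rose though its own level had a log2 fold change of -0.04. The order of these 2 in DKO had Grik5 first by either length measure. In WT, Grik3 came first by exon length, and Grik5 by longest transcript, at 44.8% against 39.3%.

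**Figure D2:**
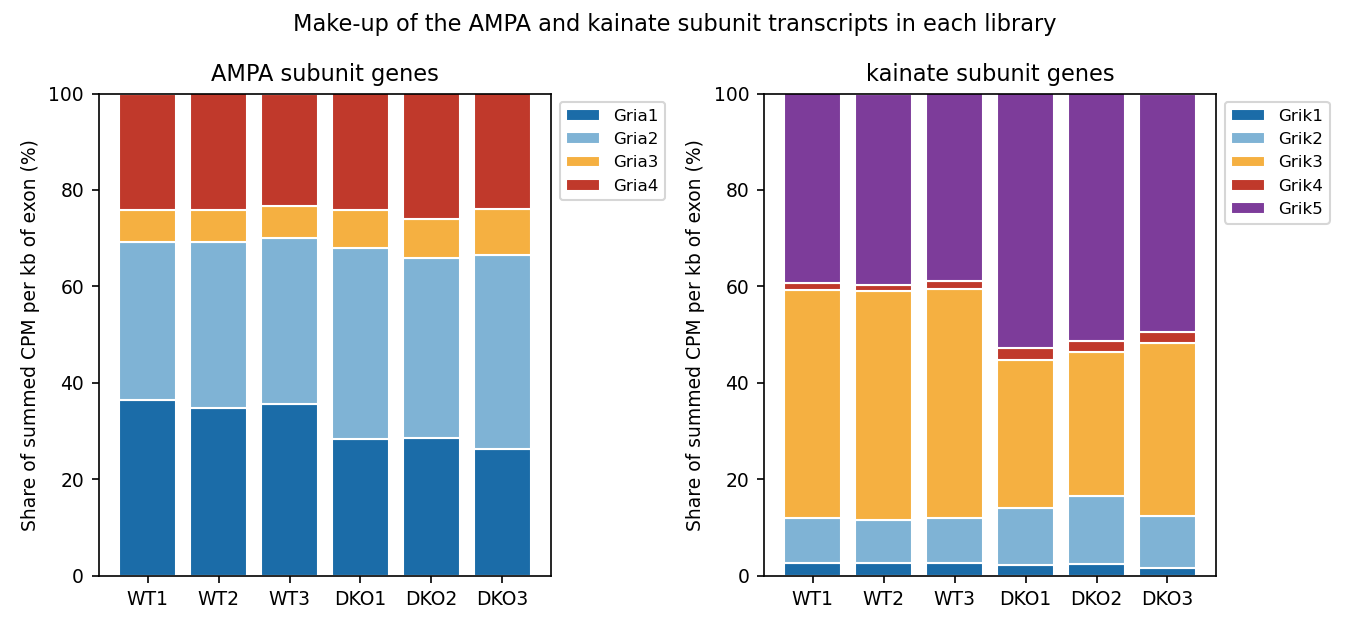
Share of each subunit in the summed RNA of its class, in percent of CPM per kilobase of exon, for the AMPA and kainate classes in each of the 6 libraries. Grik3 makes up 47.4% of kainate subunit RNA in WT and 32.1% in DKO, and Gria1 35.6% and 27.6% of AMPA subunit RNA.

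Neto1 and Neto2 encode auxiliary proteins that bind kainate receptors and slow their gating, and Neto1 also binds NMDA receptors. Neto1 was at 45.1, 33.2 and 39.4 CPM in WT1 to WT3 and 25.8, 24.5 and 19.9 CPM in DKO1 to DKO3, without overlap. Neto1 had a log2 fold change of -0.75 (SE 0.13, edgeR adjusted p = 0.021), 59.6% of WT. It was no longer called without WT1 (adjusted p = 0.071 by edgeR), WT3 (0.0768) or DKO2 (0.0588), or with the Y-linked covariate (0.0562), while the log2 fold change stayed between -0.85 and -0.52 over all alternatives. Neto2, the more abundant of the pair, was at 153, 131 and 135 CPM in WT and 137, 136 and 122 CPM in DKO and was not called (log2 fold change -0.09, SE 0.0717, edgeR adjusted p = 0.711). Of the 7 kainate subunit and Neto genes, 3 were thus called lower and 4 were not, against 1.34% of all genes tested called lower. This count is a description only.

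NMDA receptors pair the obligatory subunit, encoded by Grin1, with Grin2 or Grin3 subunits, and open only when glutamate meets a depolarised membrane. Of the 7 subunit genes none was called by edgeR or DESeq2, none had an unadjusted p under 0.05, and all 7 overlapped between genotypes. Most genes tested were alike in this: 13.3% of all genes had an unadjusted p under 0.05 by edgeR, and 19.5% did not overlap. Grin2b, the main embryonic Grin2 subunit of the forebrain, was at 240.0, 172 and 222 CPM in WT and 241, 230.5 and 149.9 CPM in DKO, with a log2 fold change of -0.03 (SE 0.18). Grin1 was at 17.9, 13.1 and 12.7 CPM in WT and 13.8, 12.5 and 7.41 CPM in DKO (log2 fold change -0.37, SE 0.226, and -0.14 without DKO3). DKO3 was the lowest library for both. Grin3a was at 17.4 to 24.1 CPM in WT and 15.2 to 22.9 in DKO, and Grin2d at 5.07 to 8.53 and 3.86 to 7.42. Grin2a, which rises in the forebrain after birth, was at 1.88 to 3.29 CPM in WT and 1.27 to 3.67 in DKO. Grin2c, typical of the cerebellum, had 8 to 27 reads per library. The standard errors of this class ran up to 0.523 for Grin2c. A change of the size seen in Neto1 or Grik1 would have been hard to detect in the low genes. Grin1 (SE 0.226) and Grin2b (SE 0.18) were also imprecise. Grm5, with an SE of 0.207, was not called at a log2 fold change of -0.69. The lack of a call in Grin1 and Grin2b thus does not show that they were unchanged. Grin3b was at 1.47 to 1.90 CPM in WT and 1.53 to 2.19 in DKO, and 32.1% of its exon bases lie opposite exons of Tmem259, from which its reads cannot be separated where the counting ignored strand. Grin1 overlaps its antisense gene Grin1os in the same way.

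The summed level of the NMDA class was 257.8 ± 42.4 CPM in WT and 248.4 ± 59.9 in DKO, or 96.4%, and the groups overlapped. Grid1, a delta receptor that acts as a synaptic organiser more than as a glutamate-gated channel, was at 24.6, 20.4 and 18.8 CPM in WT and 18.7, 17.9 and 14.3 CPM in DKO. Its nearest WT and DKO libraries all but touched, and it was not called (log2 fold change -0.32, SE 0.131, edgeR adjusted p = 0.325; -0.21 without DKO3).

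Metabotropic receptors fall into groups by sequence and coupling: Grm5 is a group I receptor that raises intracellular calcium, Grm2 and Grm3 form group II, and Grm4, Grm6, Grm7 and Grm8 form group III, both of which lower cyclic AMP. Grm4, a receptor of presynaptic terminals, was at 11.8, 11.0 and 10.4 CPM in WT1 to WT3 and 6.19, 6.30 and 5.52 CPM in DKO1 to DKO3. Grm4 had a log2 fold change of -0.88 (SE 0.0998, edgeR adjusted p = 0.00235), 54.2% of WT, and it was called in all 14 alternatives, with values between -0.92 and -0.77. Grm5 was at 41.9, 29.6 and 31.1 CPM in WT and 23.7, 25.3 and 14.6 CPM in DKO. These groups did not overlap, but the spread within them was wide, and Grm5 was not called (log2 fold change -0.69, SE 0.207, edgeR adjusted p = 0.162). It was called only when the filter on low counts was dropped (adjusted p = 0.0342 by edgeR), and its log2 fold change was -0.30 without WT1 and DKO3.

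The remaining metabotropic genes overlapped between genotypes. Grm3 was at 4.70 to 5.61 CPM in WT and at 4.84, 4.39 and 1.93 CPM in DKO, with DKO3 apart from the other DKO libraries, and its log2 fold change went from -0.51 to -0.19 without DKO3. Grm2 was at 6.47 to 8.20 CPM in WT and 5.72 to 9.18 in DKO, and Grm7 at 6.48 to 8.40 and 6.23 to 9.35. Grm8 was at 2.56 to 3.17 CPM in WT and 2.10 to 3.94 in DKO. The other group III genes thus did not share the fall of Grm4: the log2 fold changes of Grm7 and Grm8 were 0.07 (SE 0.162) and 0.19 (SE 0.237), both uncalled. Grm6, a receptor of retinal bipolar cells, had 2 to 7 reads per library and was not tested.

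**Figure D3:**
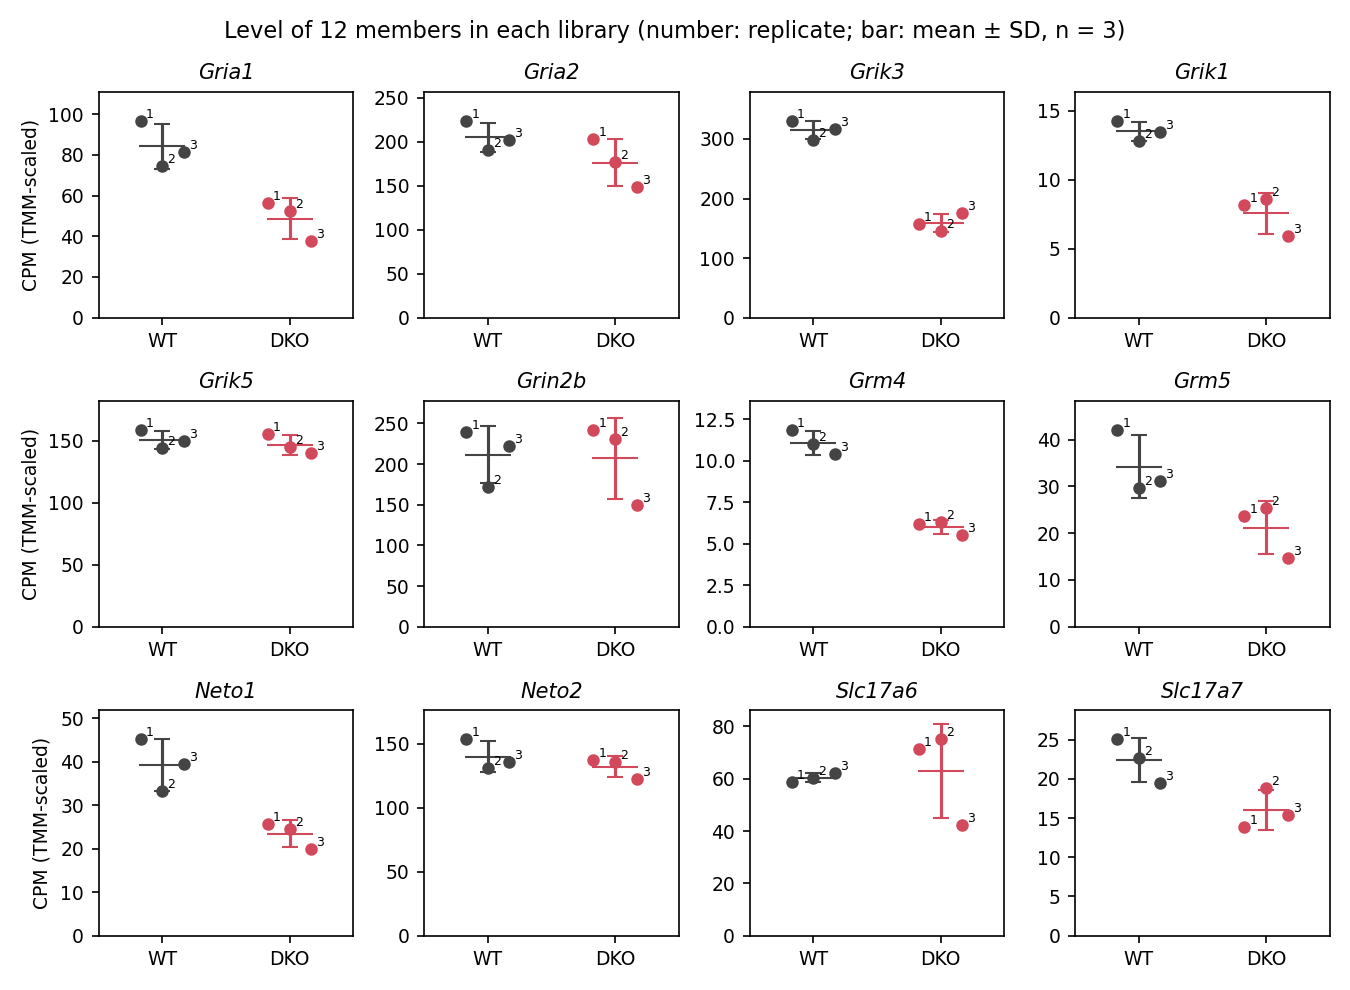
TMM-scaled CPM of 12 members, 1 per panel, in each WT (grey) and DKO (red) library on linear axes from 0; points carry the replicate number and bars give the mean ± SD (n = 3). WT and DKO points do not overlap for Gria1, Grik1, Grik3, Grm4, Grm5, Neto1 and Slc17a7, and DKO3 is the lowest point in most panels, with Grik3 and Slc17a7 as exceptions.

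The vesicular transporters are markers of glutamate-releasing neurons: Slc17a6 is typical of diencephalic, brainstem and young cortical neurons, Slc17a7 of mature cortical neurons, and Slc17a8 of small populations that often release another transmitter too. Of the 2 promoter windows listed for Slc17a6, 1 is shown because it holds the homeodomain letters TAATTA, in capitals, 81 bases before the transcript start, and the other holds neither motif. The window shown is chr7:51624387-51624686 on the plus strand of GRCm38.p6.
Slc17a6: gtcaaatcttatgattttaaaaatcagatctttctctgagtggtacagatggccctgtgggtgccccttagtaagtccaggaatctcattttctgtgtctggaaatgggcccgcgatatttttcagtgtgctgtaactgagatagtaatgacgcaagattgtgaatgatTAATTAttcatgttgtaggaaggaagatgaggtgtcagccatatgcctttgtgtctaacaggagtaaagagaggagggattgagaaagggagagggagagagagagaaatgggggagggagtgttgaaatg
TAATTA or TAATTG, counted on both strands, occurred in 2 of the 32 windows found for 25 of the members, or 6.25%, against 12.4% of all 32851 windows in the table. The other was 1 of the windows of Slc17a8, 141 bases before the start. Member windows were richer in G and C, with a median of 61.5% against 52.7%. A match of 6 letters is a description and does not show binding, and 11 members had no window.

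Slc17a6 was at 58.6, 60.4 and 62.1 CPM in WT and 71.4, 75.0 and 42.3 CPM in DKO. DKO1 and DKO2 were above all WT libraries and DKO3 below all of them, so no call was made (log2 fold change 0.06, SE 0.181, edgeR adjusted p = 0.937). Without DKO3 the log2 fold change was 0.28, called higher at an adjusted p of 0.0184 by edgeR. Markers of diencephalic and hypothalamic neurons, where Slc17a6 is known to be expressed, summed to 138.7 to 156.9 CPM in WT, 317.3 and 317.0 CPM in DKO1 and DKO2 and 245.7 CPM in DKO3. Otp made up much of the DKO sums. Without it the sums were 127.6, 137.4 and 145.0 CPM in WT and 196.0, 204.1 and 124.7 CPM in DKO1 to DKO3. DKO3 was thus above every WT library with Otp and below every WT library without it. The single markers were mixed in DKO3. Tcf7l2 and Gbx2 were above every WT library, and Sim1, Lhx9, Barhl2, Nhlh2 and Lhx5 were below every WT library. Of the whole diencephalic and hypothalamic list 9 were tested and 1, Otp, was called higher. The part of such cells in the level of Slc17a6 was not tested.

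Slc17a7 was at 25.0, 22.7 and 19.5 CPM in WT and 13.9, 18.8 and 15.4 CPM in DKO, without overlap. Slc17a7 had a log2 fold change of -0.48 (SE 0.131) and was not called by edgeR (adjusted p = 0.116), whereas DESeq2 called it lower (adjusted p = 0.00839). It was also called lower by edgeR when the filter on low counts was dropped. The 9 cortical excitatory markers stood at 77.7% of WT in sum, all 9 with a negative log2 fold change and 1, Neurod2, called lower. None of the 9 was at 0 in any library, and their part in the level of Slc17a7 was not tested. Slc17a8 was at 0.495, 0.202 and 0.327 CPM in WT and 0.832, 0.572 and 0.505 CPM in DKO, from 13 to 54 reads per library. Its groups did not overlap but the difference was not called (log2 fold change 0.90, SE 0.371, edgeR adjusted p = 0.336). In sum the 3 transporters were at 83.1 ± 1.1 CPM in WT and 79.6 ± 19.0 in DKO.

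AMPA receptors travel and gate with auxiliary subunits. The Cacng genes encode transmembrane AMPA receptor regulatory proteins, with Cacng2 (stargazin), Cacng4 and Cacng8 of one type and Cacng5 and Cacng7 of another, and Cnih2 and Cnih3 encode cornichon proteins that promote export from the endoplasmic reticulum and slow deactivation. None of the 7 was called by edgeR or DESeq2, and 3 (Cnih2, Cnih3 and Cacng2) had an unadjusted p under 0.05, all lower, a threshold that 13.3% of all genes passed. Cacng2 was at 29.4, 28.1 and 27.2 CPM in WT and 24.1, 23.8 and 17.2 CPM in DKO, without overlap (log2 fold change -0.38, SE 0.124, edgeR adjusted p = 0.204). Cnih2 was at 142, 123 and 134 CPM in WT and 115, 117 and 103 CPM in DKO, also without overlap (log2 fold change -0.25, SE 0.0701, edgeR adjusted p = 0.135). For Cnih2 the gap between the nearest WT and DKO libraries was smaller than the range within either genotype. For Cacng2 that gap was larger than the WT range and smaller than the DKO range. Without DKO3 the log2 fold change of Cacng2 was -0.23, and without WT1 and DKO3 it was -0.20 for Cacng2 and -0.13 for Cnih2.

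Cacng4 and Cacng7 had narrow standard errors and small differences. Cacng4 was at 214, 199 and 209 CPM in WT and 205, 202 and 193 CPM in DKO (log2 fold change -0.05, SE 0.0498), and Cacng7 at 98.0, 88.6 and 104 against 90.8, 88.9 and 98.4 CPM (-0.06, SE 0.0678). Cacng8 was at 17.1 to 20.9 CPM in WT and 15.3 to 19.8 in DKO, Cacng5 at 2.46 to 3.34 and 2.62 to 3.40, and Cnih3 at 4.99 to 5.92 and 2.98 to 5.04 (log2 fold change -0.43, and -0.25 without DKO3). With the Neto genes, the 9 auxiliary subunits summed to 671.5 ± 40.9 CPM in WT and 606.7 ± 28.2 in DKO, or 90.3%.

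**Figure D4:**
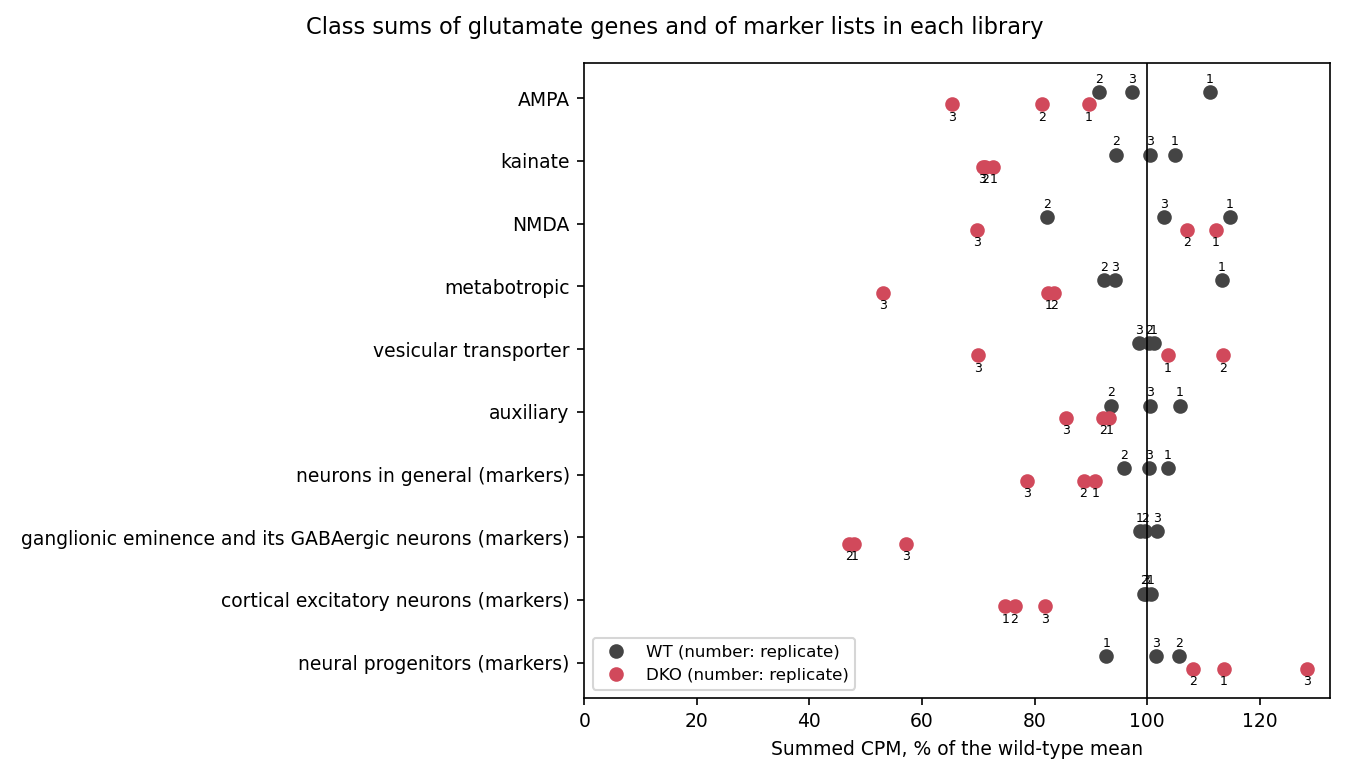
Summed TMM-scaled CPM of 6 gene classes and 4 marker lists in each WT (grey) and DKO (red) library, as a percent of the WT mean; numbers are replicates. DKO points of the kainate, AMPA, metabotropic and auxiliary classes lie below their WT points, with DKO means from 71.6% to 90.3% of WT, and the NMDA and vesicular transporter points overlap. The nearest libraries, WT2 and DKO1, all but touch for the auxiliary class (628.8 and 626.4 CPM) and are close for the AMPA class (342.0 and 335.0 CPM).

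Per kilobase of exon, the order of the genes in WT was led by auxiliary subunits: Cnih2 at 97.0 ± 6.99 CPM per kilobase, Cacng4 at 58.0 ± 2.04 and Cacng7 at 39.6 ± 3.12. Grik3 (35.1 ± 1.7) and Grik5 (29.1 ± 1.36) led the channel subunits, ahead of Neto2 (22.8 ± 1.92). Gria1 (13.9 ± 1.85) and Gria2 (13.2 ± 1.07) came next and did not differ beyond their spread by this length. The orders and ranks given here are by exon length only. With the longest transcript as the length, Gria2 was above Gria1 in WT, at 39.1% against 29.9% of their class, and Grik5 was above Grik3. Grin2b, at 8.51 ± 1.41, was the highest NMDA subunit, and Grin2a, Slc17a8 and Grin2c were the lowest of the genes tested, at 0.149, 0.0724 and 0.0542. In DKO the first 3 places were the same, Grik3 moved from rank 4 to rank 6 at 17.8 ± 1.66, and Gria1 from rank 7 to rank 10. Grik1 went from rank 20 to rank 27 and Grm4 from rank 22 to rank 28.

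Of 44 other genes of glutamate handling and postsynaptic scaffolds, 43 were tested, with 4 called lower and 1 called higher by edgeR, or 11.6% against the 2.68% of all genes. All 5 were among the 26 scaffold and trafficking genes. Grip1, which anchors AMPA receptors, fell from 62.4 ± 1.40 to 46.1 ± 2.34 CPM (log2 fold change -0.44, SE 0.0558, edgeR adjusted p = 0.00447). Dlgap3, a scaffold of the postsynaptic density, was the gene called higher, at 49.1 ± 3.52 CPM in WT and 77.3 ± 4.90 in DKO (log2 fold change 0.65, SE 0.0699, edgeR adjusted p = 0.00177). Both were called in all 14 alternatives. Relatives of Dlgap3 went the other way: Dlgap2 had a log2 fold change of -0.56 (edgeR adjusted p = 0.0399) and Dlgap4 of -0.25 (0.0371), as did the scaffold gene Dlg3 at -0.23 (0.0351). These 3 calls were less stable: without WT1, WT2, WT3 or DKO1 the count of lower scaffold genes was 1, and without DKO2 it was 2. Calls over all genes were also fewer in these fits, at 309 to 403 against 634 with all libraries. Dlgap2 was not called without DKO3 either. With the replicate number as a block, Dlgap4 was not called (edgeR adjusted p = 0.0615). None of 6 plasma membrane glutamate transporters tested and none of 11 metabolism genes was called by edgeR or DESeq2, with 1 in each list at an unadjusted p under 0.05. Slc1a7 was not tested.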

How the data were processed

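Gene counts were deposited by the authors as raw read counts per gene for 6 libraries, not normalized. The submitters' processing notes name featureCounts and the genome build GRCm39, without versions; the aligner, annotation release and strand setting are not given in the sources used here. Per the labels' protocols the kit was stranded and removed ribosomal RNA. The table held 55416 genes, 1492 without a symbol, and no 2 libraries had identical counts.

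From these counts, edgeR 4.0.16 (R 4.3.3) filtered low genes with filterByExpr (minimum count 10, minimum total 15), scaled by TMM, and ran the quasi-likelihood test with genotype as the only term. The biological coefficient of variation was 13.4%. Fold changes used a prior count of 0.125, and SE was the absolute log2 fold change over the square root of F. P-values were adjusted by Benjamini-Hochberg over 23628 genes, called under 0.05. DESeq2 1.42.0 was an alternative, as were other scalings, filters, a replicate block, a Y-linked covariate, and leaving libraries out. The script was tested on simulated data. Exon lengths and overlaps came from GENCODE M21 gene models, where 94.1% of the gene IDs were found. Promoter windows are RefSeq's, on GRCm38.p6, used for letters only, never set against the counts by coordinates.

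All 36 members are named. Every called gene of the other glutamate pathway lists is named; marker lists are given by counts and sums. The members and lists were chosen with earlier results of these data known. Counting error is the only error that the value of 3 reads covers.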

Additional observations from a re-analysis of the deposited data

How the results depend on the processing

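The replicate block left 5 members called lower, the same 5, and 690 genes in all against 634; Dlgap4 alone of the named pathway genes lost its call. Within-genotype deviations of a WT and a DKO library with the same number correlated at -0.0694, -0.00223 and 0.00182 over all tested genes, where no library correlated best with its own number. Over the 16482 genes of at least 1 CPM, Xist and Y-linked genes left out, they correlated at 0.166, 0.115 and 0.104, and all 6 libraries correlated best with their own number. The labels do not say which libraries came from the same litter, so the numbers were not treated as pairing the libraries. The second set of genes is a hint from the data that they may. Members called lower were 5 with DESeq2 size factors, total count scaling or the 1 CPM filter, 6 with DESeq2, 7 with no filter, 2 with the Y-linked covariate and 2 to 5 when 1 library was left out. Over all genes, calls in either direction were 642 with DESeq2 size factors, 646 with total count scaling and 622 with the 1 CPM filter. They were 1134 with DESeq2, 874 with no filter, 358 with the Y-linked covariate and 309 to 749 when 1 library was left out. Members called higher were 0, or 0 to 1 when 1 library was left out, and 1 without WT1 and DKO3, an alternative chosen after seeing the data; the 1 is Slc17a6. Other pathway genes called lower were 4, against 1 with total count scaling, 1 with the Y-linked covariate, 1 without WT1 and DKO3, and 1 to 4 when 1 library was left out; those called higher were 1, or 1 to 2. With total count scaling 390 of all genes were called higher and 256 lower, against 317 and 317.

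No member that the edgeR test with all libraries called changed sign. Leaving out 1 library at a time gave log2 fold changes of -0.141 to 0.0192 for Gria3, -0.0883 to 0.106 for Grik2, -0.0815 to 0.0019 for Grik5, -0.130 to 0.461 for Grin2a, -0.158 to 0.165 for Grin2b, -0.751 to 0.190 for Grin2c, -0.378 to 0.120 for Grin2d, -0.250 to 0.0459 for Grin3a, -0.0608 to 0.264 for Grm2, -0.0811 to 0.218 for Grm7, -0.0869 to 0.285 for Slc17a6 and -0.134 to 0.0587 for Cacng8. Grik2 was at -0.0131 with the Y-linked covariate and Grin2b at 0.0033 with total count scaling. Without WT1 and DKO3, Gria3 was at 0.0951, Grik5 at 0.0433, Grin1 at 0.0398, Grin2b at 0.270, Grin2c at 0.455, Grin2d at 0.351, Grin3a at 0.174, Grin3b at -0.0151, Neto2 at 0.0473, Cacng4 at 0.007 and Cacng8 at 0.133. The causes were not tested. Low genes (Grin2c, Slc17a8, Grm6) are limited by depth.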
